A study of Mus musculus with 12 samples.

Results

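The vessels of mice infused with angiotensin II for 7 days were compared with those of mice infused for 1 day, to separate genes that went on changing after the first day from genes that faded and genes that appeared late. The comparison rests on 6 arrays of the 12 in the series, chosen by the day in their titles: 3 at day 7 and 3 at day 1, described in the labels as biological replicates, with no animal named for an array. All mice were male C57BL/6, aged 8 to 10 weeks. Both groups carried an osmotic pump delivering angiotensin II at 1500 ng per kg per min in Ringer's solution, so that pump, vehicle and hormone were common to them and the days of infusion differed. The other 6 arrays were 3 of untreated vessels (day 0, no agent) and 3 of vessels after 3 days of the same infusion. They entered the fit to estimate the spread, and day 0 served to sort the changes by class. The labels do not say which vessel was taken or what tissue came with it. Of 30702 genes with a transcript cluster of their own, 22065 were bright enough on at least 3 arrays to be tested.

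Angiotensin II contracts vascular smooth muscle through its type 1 receptor and raises blood pressure. Prolonged exposure is known to draw inflammatory cells into the vessel wall, to thicken its collagen matrix and to shift smooth muscle cells away from the contractile state. The wall is made of smooth muscle, endothelium and adventitial fibroblasts, and fat and nerve lie around it. Total RNA of such a mixed tissue cannot tell fewer cells of a type from less RNA per cell, and this holds for each gene group below. Defining markers of smooth muscle were bright at day 1: Acta2, smooth muscle alpha-actin, stood at 19.93 on each of the 3 arrays, the highest value the scale allows, and Tagln, which encodes transgelin, read 16.38, 16.69 and 17.13.

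At day 7, 414 genes were higher and 642 lower than at day 1 at an adjusted p under 0.05 in limma, which is 1.88% and 2.91% of the genes tested (4.79% together). The change was at least 2-fold for 183 of the higher and 299 of the lower genes, and 6828 genes had an unadjusted p under 0.05. For each of the 1056 called genes the 3 day 7 arrays lay wholly beyond the 3 day 1 arrays, as they did for 25.4% of all genes. At the edge of the threshold, Vrk1 changed by -0.39 log2 units with an adjusted p = 0.0499, and Pramel50, by 1.47 with an adjusted p = 0.0501, was not called. The count depended on single arrays and on the spread pooled over all 4 days. Without day 1 replicate 1 limma called 1647 genes higher and 1517 lower, without day 1 replicate 2 it called 16 and 27, without day 1 replicate 3 it called 56 and 124, without day 7 replicate 2 it called 111 and 337, without day 7 replicate 1 it called 310 and 250, and without day 7 replicate 3 it called 2240 and 1539. Leaving out an array of day 0 gave 140 to 153 higher and 249 to 314 lower, and leaving out day 3 replicates 1, 2 and 3 gave 361, 152 and 192 higher and 439, 265 and 313 lower. With the 6 compared arrays alone limma called 2 genes, Aspn and Myh6, and 4469 had an unadjusted p under 0.05. Among the 110 called genes named by the rule in the methods, 12 were called under each of 24 other settings: Aspn, C1qtnf3, Angptl1, Myh6, Tnnt2, Myl7, F3, Ccn1, Esm1, Edn1, Lyve1 and Cbr2. The other 98 were each lost in at least 1 of those settings, and none changed sign. Quantile normalization gave 398 higher and 1698 lower genes, and centring each array on its median gave 503 and 1746, so the higher share of the calls moved from 39.2% to 19% and 22.4%; the median change of all genes moved from 0.04 to -0.13 and -0.21 log2 units.

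The arrays themselves differed in signal over background. The median of the positive control features lay above that of the negative ones by 2.25 ± 0.29 log2 units on the day 1 arrays (SD, n = 3) and by 1.76 ± 0.49 on the day 7 arrays (SD, n = 3; exact two-sided permutation p = 0.3, with 0.1 the smallest possible), and day 7 replicate 1 was lowest at 1.20. Genes with a mean signal of 5 to 6 had a median change of 0.20, and genes of 10 to 12 a median of -0.32. Of the 414 higher genes, 234 lay under the median of the negative control features on all 3 day 1 arrays, and for those the log2 differences below are not given as folds. A fit with the control difference as a covariate called 241 genes higher and 122 lower. Day 1 replicate 3 stood nearest to the untreated vessels for contractile genes, as described with them below. Pearson r between arrays was 0.977 to 0.990 within day 1, 0.974 to 0.985 within day 7 and 0.932 to 0.988 between the 2 days.

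The 1056 changed genes were sorted by what they had done on the first day. Late changes were the most frequent, with 812 genes (349 higher and 463 lower) that were not called at day 1 against day 0 but were called at day 7 against day 1 and at day 7 against day 0 in the same direction. This class rests on a threshold and does not show that a change began after day 1. By day 1 Ccn1 had moved by -2.42 (limma adjusted p = 0.0569), F3 by 2.05 (adjusted p = 0.0728) and Aspn by 0.97 (adjusted p = 0.0524), but C7 by 0.09. Fading was seen for 57 genes, of which 55 had risen by day 1 and came down and 2, Clu and Snord61, did the opposite. Another 32 genes went on changing in the direction of the first day, 29 downward and 3 upward (Col16a1, Myo7a and Tlr8). The last 155 met none of the 3 definitions. Both comparisons use the same day 1 arrays, so an error in those arrays enters them with opposite sign, and the class counts are descriptions with no test. Followed from the other end, 799 genes (3.62% of those tested) had changed by day 1 against day 0, and 5572 (25.3%) by day 7. Of the 799, 439 were higher at day 1. Of these 36 came back by at least 1 log2 unit, 0 moved on by as much, and 312 were still called higher at day 7 than at day 0. Among the 360 genes lower at day 1, 43 fell by a further 1 log2 unit or more, 3 came back, and 339 were still called lower at day 7.

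**Figure D1:**
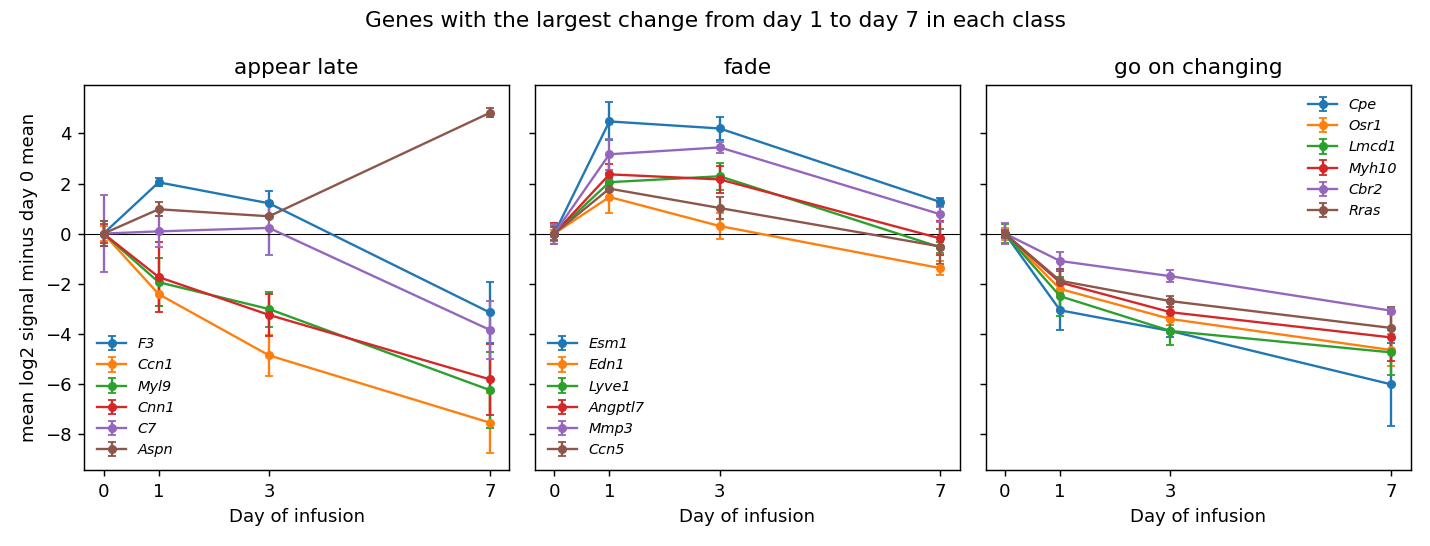
Mean log2 signal at days 0, 1, 3 and 7 of infusion minus the day 0 mean, with bars of 1 SD over 3 arrays, for the 6 genes with the largest change from day 1 to day 7 in each class. In the late panel Aspn rises after day 3 while the other 5 genes fall; in the fading panel all 6 genes are up at day 1 and fall by day 7; in the last panel all 6 genes fall at day 1 and again by day 7.

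Genes that faded included known products of endothelium, resident macrophages and stroma. Esm1, the endothelial proteoglycan endocan, read 10.34, 11.49 and 10.06 at day 1 and 7.24, 7.48 and 7.5 at day 7, against 5.74 to 6.60 in untreated vessels. It fell by 3.22 ± 0.38 log2 units (SE), or 9.33-fold (adjusted p = 0.0076), and remained above day 0 (1.26, adjusted p = 0.0387). Lyve1, the hyaluronan receptor of lymphatic endothelium and resident adventitial macrophages, read 10.32, 10.85 and 10.20 at day 1 and 7.79, 7.67 and 8.10 at day 7. The day 3 arrays, at 10.21 to 11.26, overlapped those of day 1, and the change from day 1 to day 7 was -2.60 ± 0.28 (adjusted p = 0.0059). F13a1, coagulation factor XIII A of macrophages, followed with 11.18, 11.29 and 10.67 at day 1 and 8.58, 9.24 and 9.29 at day 7 (-2.01 ± 0.31, adjusted p = 0.0167). Mmp3, the protease stromelysin 1, came down from 12.62, 12.47 and 11.47 to 9.44, 9.98 and 9.96 (-2.40 ± 0.32, adjusted p = 0.0105). In none of these 4 genes did the arrays of the 2 days overlap.

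Endothelin 1, the constrictor peptide encoded by Edn1, passed below its starting level. It read 8.11 to 8.34 in untreated vessels, 9.57, 9.06 and 10.33 at day 1, and 6.57, 6.73 and 7.13 at day 7, and every day 7 array was below every untreated one. The change from day 1 was -2.84 ± 0.34 log2 units (adjusted p = 0.0077). Angptl7, a secreted angiopoietin-like protein, fell by 2.56 on the log2 scale (SE 0.39, adjusted p = 0.0164) and Ccn5, a matricellular protein of smooth muscle, by 2.31 (SE 0.36, adjusted p = 0.0167), and neither passed the threshold against day 0 (adjusted p = 0.721 and 0.291). Pf4, platelet factor 4, which macrophages also express, fell by 0.94 (SE 0.18, adjusted p = 0.0303) after a rise of 1.00. Dio2, the deiodinase that activates thyroid hormone, went from 9.52, 9.99 and 8.59 to 7.28, 7.26 and 7.82 (-1.91 ± 0.45, adjusted p = 0.047; adjusted p = 0.055 with the replicate number as a block).

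Genes that went on changing were nearly all falls. Cpe, carboxypeptidase E, read 17.70 to 17.94 in untreated vessels, 14.42, 14.15 and 15.66 at day 1 and 11.31, 10.42 and 13.63 at day 7. Its day 7 arrays differed by more than 3 log2 units, and replicate 3 lay highest in both groups; the change was -2.96 ± 0.70 (adjusted p = 0.047). Osr1, a zinc-finger transcription factor of mesenchyme, went from 8.60, 8.98 and 10.13 to 7.10, 6.05 and 7.25 (-2.44 ± 0.41, adjusted p = 0.0211). Myh10, non-muscle myosin heavy chain IIB, went from 10.63, 10.70 and 11.46 to 8.44, 7.96 and 9.81 (-2.20 ± 0.41, adjusted p = 0.0266). Cbr2, a carbonyl reductase, was at 9.38, 9.58 and 10.08 against 7.56, 7.77 and 7.75 (-1.99 ± 0.23, adjusted p = 0.0076). Rras, a small GTPase of integrin signalling, changed by -1.88 ± 0.38 (adjusted p = 0.0332) and Gstm2, a glutathione transferase, by -1.04 ± 0.21 (adjusted p = 0.033).

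The largest falls called were in F3 and Ccn1. F3, tissue factor, the cell-surface starter of coagulation, read 15.09, 15.40 and 15.21 at day 1 and 10.29, 8.70 and 11.12 at day 7. It fell by 5.20 on the log2 scale (SE 0.54, 36.7-fold, adjusted p = 0.005), to under the untreated arrays at 12.64 to 13.64. Ccn1, a secreted matricellular protein of early responses to stretch and growth factors, read 15.58, 15.61 and 16.45 at day 1 and 9.38, 11.21 and 11.65 at day 7 (-5.13 ± 0.59, 35.1-fold, adjusted p = 0.0076). Its level was lower on every later day, from 18.10 to 18.64 in untreated vessels down to 12.65 to 14.28 at day 3. Ccn2, connective tissue growth factor, went from 14.81, 15.38 and 16.47 to 10.99, 11.34 and 13.48 (-3.62 ± 0.63, adjusted p = 0.0232). C7, the complement component that binds into the membrane attack complex, went from 13.63, 14.52 and 14.80 to 10.11, 9.39 and 11.65 (-3.94 ± 0.86, adjusted p = 0.0394), and it was the single called gene of 16 complement genes tested. Itga5, the fibronectin receptor subunit, changed by -3.57 ± 0.84 (adjusted p = 0.0469).

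**Figure D2:**
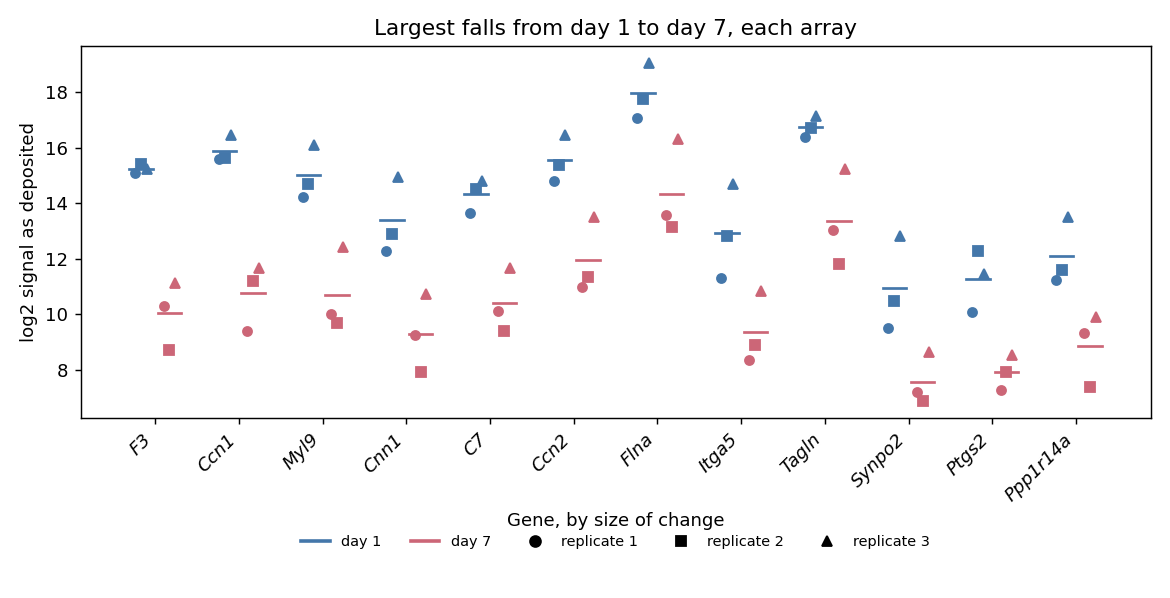
Log2 signal of the 12 genes with the largest falls on each of the 3 day 1 arrays (blue) and the 3 day 7 arrays (red), with bars at the group means; symbols mark the replicate number. The 2 groups do not overlap for any of the 12 genes, and replicate 3 is the highest day 7 array for each of them.

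Several contractile proteins of smooth muscle fell. Of 31 genes of this list tested, 13 fell, 2 rose and 16 did not pass, beside 2.91% lower and 1.88% higher over all genes. The median change was -2.40 log2 units against 0.04 over all genes, and 29 of the 31 changed by less than 0. Myl9, the regulatory light chain of smooth muscle myosin, read 14.24, 14.70 and 16.10 at day 1 and 9.99, 9.69 and 12.43 at day 7 (-4.31 ± 0.74, 19.8-fold, adjusted p = 0.0227). Cnn1, calponin 1, which binds actin and slows its motor, went from 12.29, 12.90 and 14.93 to 9.23, 7.90 and 10.73 (-4.08 ± 0.82, adjusted p = 0.032). In both genes replicate 3 was the highest array of its day, and the 2 groups stayed apart. Tagln changed by -3.39 ± 0.71 (adjusted p = 0.035) and Flna, the actin cross-linker filamin A, by -3.61 ± 0.76 (adjusted p = 0.0363). Synpo2, an actin-bundling protein, changed by -3.37 ± 0.76 (adjusted p = 0.0429), and Ppp1r14a, an inhibitor of myosin phosphatase, by -3.25 ± 0.72 (adjusted p = 0.0403). Acta2 came down from the ceiling to 16.43, 15.20 and 18.74, a fall of at least 3.14 (adjusted p = 0.0394). Myh11, the smooth muscle myosin heavy chain, read 15.72, 16.90 and 18.91 at day 1 and 12.69, 10.80 and 15.10 at day 7; the difference of -4.31 ± 1.07 did not pass (adjusted p = 0.052), and the arrays of each day spread over more than 3 log2 units. Casq2 (0.64) and Pln (0.98), which handle calcium in the sarcoplasmic reticulum of smooth and of cardiac muscle, were the members that rose. Both are named after their values were seen, and Casq2 was under the median of the negative control features on all 6 arrays.

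On the mean of the list, day 1 replicates 1 and 2 read 10.53 and 11.01 and replicate 3 read 12.17, close to the untreated arrays at 12.36 to 12.55. The day 7 arrays read 8.79, 8.10 and 10.10. The number of falls depended on which arrays were kept: without day 1 replicate 2 or without day 1 replicate 3 no member was called lower, without day 7 replicate 1 or 2 there were 2 and 1, without day 1 replicate 1 there were 21, and without day 7 replicate 3 there were 24. Leaving out any day 0 array left 2, and leaving out day 3 replicates 1, 2 and 3 left 9, 2 and 4. Over these settings the median change stayed between -1.83 and -2.76. With the control difference as a covariate 0 members were called and the median was -1.67. Srf, the transcription factor that binds CArG boxes in muscle promoters, fell from 7.41, 7.68 and 8.45 to 6.50, 6.14 and 6.53 (-1.46 ± 0.26, adjusted p = 0.0242). A CArG box, searched on both strands from 250 bases before to 50 bases after each RefSeq start, was found in 3 of 14 windows of the members that passed (21.4%), in 2 of 20 windows of the members that did not pass, in 5 of 34 windows of all tested members (14.7%) and in 1.63% of 32851 windows of all genes. The 3 windows are shown because they belong to members that fell, and a part of Srf in these falls was not tested. The box is in capitals, and each stretch lies before the start on the plus strand of GRCm38.p6:
Myl9, chr2:156775283-156775332: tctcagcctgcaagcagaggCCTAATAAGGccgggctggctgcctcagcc
Vcl, chr14:20929151-20929200: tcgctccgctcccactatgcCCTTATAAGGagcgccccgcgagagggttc
Lmcd1, chr6:112273523-112273572: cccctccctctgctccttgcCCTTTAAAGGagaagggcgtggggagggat
Vcl encodes vinculin of the dense plaques and changed by -2.75 ± 0.54 log2 units (adjusted p = 0.031). Lmcd1, a LIM-domain co-regulator, read 9.0, 8.42 and 9.96 at day 1 and 6.45, 6.30 and 7.91 at day 7 (-2.24 ± 0.51, adjusted p = 0.0441), after a first fall of 2.50 at day 1, and it belongs to the genes that went on changing. A match of letters is a description and shows no binding.

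Regulators of vessel tone fell or did not pass. Of 32 receptors, channels and cyclic GMP enzymes tested, 6 fell (2.91% of all genes did) and 0 rose, with a median of -0.50. Kcnmb1, the beta subunit of the calcium-activated potassium channel of smooth muscle, read 9.35, 10.14 and 10.87 at day 1 and 7.15, 6.42 and 8.13 at day 7 (-2.89 ± 0.49, adjusted p = 0.0212). Ptgs2, the inducible cyclooxygenase, went from 10.08, 12.26 and 11.44 to 7.26, 7.93 and 8.52 (-3.36 ± 0.72, adjusted p = 0.0377), and Pde3a, a cyclic nucleotide phosphodiesterase, from 10.24, 9.73 and 10.45 to 6.96, 7.11 and 8.98 (-2.46 ± 0.46, adjusted p = 0.0266). Edn1 belongs to this list as well. Agtr1a, Ace and Agt did not pass. Agtr1a, the type 1 receptor, read 6.43, 7.04 and 6.35 at day 1 and 7.07, 7.57 and 7.03 at day 7 (0.62 ± 0.22, adjusted p = 0.101). Ace, the converting enzyme, changed by -1.72 ± 0.62 (adjusted p = 0.104) with day 7 arrays from 9.47 to 11.72. Agt, angiotensinogen, lay below the negative controls' median throughout day 1 (0.48 ± 0.19, adjusted p = 0.129). Nox4, the NADPH oxidase of vascular cells, changed by -1.02 ± 0.50 (adjusted p = 0.193).

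The largest rise was in Aspn, asporin, a small leucine-rich proteoglycan of fibroblasts. It read 13.17, 12.82 and 12.62 at day 1, 12.53 to 12.65 at day 3 and 16.52, 16.78 and 16.88 at day 7. The rise of 3.85 ± 0.23 log2 units was 14.4-fold (adjusted p = 0.00025), and each day 3 array was below each day 7 array. C1qtnf3, a secreted C1q-family protein, lay below the negative controls' median throughout day 1, at 5.88 to 6.02, and read 8.73, 10.49 and 9.48 at day 7 (3.60 ± 0.36, adjusted p = 0.0048). Angptl1, an angiopoietin-like protein, went from 5.93, 6.20 and 5.60 to 8.97, 9.67 and 8.90 (3.27 ± 0.25, adjusted p = 0.00073). Pon1, a lipoprotein-bound lactonase and esterase, went from 6.57, 6.81 and 7.70 to 9.13, 10.13 and 10.56 (2.91 ± 0.40, adjusted p = 0.012). At day 3 Angptl1 read 5.75 to 6.33 and Pon1 6.43 to 7.13, both below every day 7 array.

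**Figure D3:**
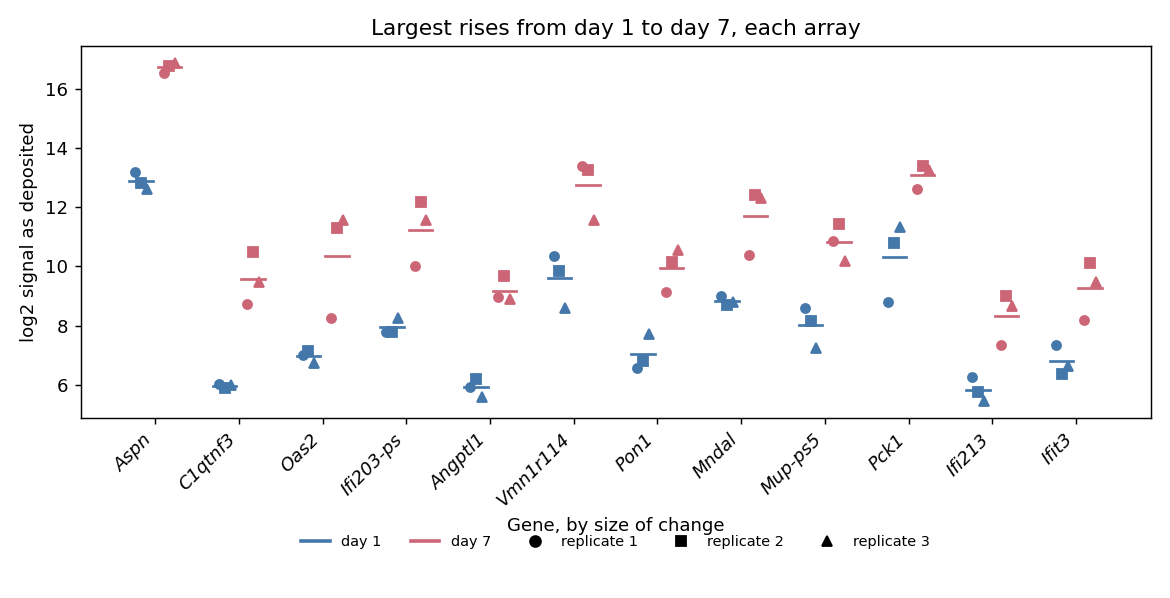
Log2 signal of the 12 genes with the largest rises on each of the 3 day 1 arrays (blue) and the 3 day 7 arrays (red), with bars at the group means; symbols mark the replicate number. The 2 groups do not overlap for any of the 12 genes. Replicate 1 is the lowest day 7 array for the interferon-inducible genes Oas2, Ifi203-ps, Mndal, Ifi213 and Ifit3, and also for Aspn, C1qtnf3, Pon1 and Pck1. For Angptl1, Vmn1r114 and Mup-ps5 replicate 3 is the lowest.

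Some collagen chains rose. Of 21 collagen chains tested, 7 rose (1.88% of all genes did) and 0 fell, with a median change of 0.44. Col3a1, the chain of type III collagen, read 15.96, 16.76 and 16.27 at day 1 and 17.55, 18.76 and 18.32 at day 7 (1.88 ± 0.35, 3.68-fold, adjusted p = 0.0266). Col1a1, the main chain of type I collagen, went from 16.07, 16.12 and 15.96 to 17.10, 17.85 and 17.81 (1.54 ± 0.32, adjusted p = 0.0343). For both, each day 7 array was above each day 1 array, and day 7 replicate 1 was the lowest of its group. Col11a1 (0.87 ± 0.14, adjusted p = 0.0169) and Col5a1 (0.84 ± 0.15, adjusted p = 0.0246), which nucleate fibrils, rose less, and Col11a1 was under the negative control median at day 1. Basement membrane chains Col4a1 (0.01) and Col4a2 (-0.15) did not pass. The list's calls numbered 2 with quantile normalization, 3 with median centring, 0 without day 1 replicate 2, 1 without day 1 replicate 3, 2 without day 7 replicate 2, 3 or 4 without a day 0 array, 3 without day 3 replicate 2 or 3 and 2 with the control difference as a covariate. The median stayed above 0 in each.

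Other matrix genes moved in both directions. Thbs2, thrombospondin 2, a secreted regulator of collagen assembly, read 8.02, 8.00 and 7.79 at day 1 and 9.37, 10.40 and 10.26 at day 7 (2.07 ± 0.27, adjusted p = 0.0103). Thbs4, a thrombospondin of stressed connective tissue, rose by 1.49 ± 0.25 (adjusted p = 0.0223), Cthrc1, a collagen-repeat protein of activated fibroblasts, by 1.48 ± 0.31 (adjusted p = 0.0356) and Fap, a surface protease of activated fibroblasts, by 1.73 ± 0.21 (adjusted p = 0.0091; chosen after its value was seen). Lum, lumican, rose by 2.00 ± 0.45 (adjusted p = 0.0436; adjusted p = 0.056 with the replicate block). Fbln1, the matrix glycoprotein fibulin 1, fell by 1.32 (SE 0.26, adjusted p = 0.0329), Prelp, a leucine-rich proteoglycan, by 1.94 (SE 0.35, adjusted p = 0.0246), and Hspg2, perlecan of basement membranes, by 1.73 (SE 0.40, adjusted p = 0.0455). In counts, 3 of 33 matrix glycoproteins rose and 3 fell, and 2 of 19 proteoglycans rose and 2 fell. Over all genes tested, 1.88% were called higher and 2.91% lower. Among 21 matrix proteases and inhibitors 2 rose and 5 fell: Mmp2, gelatinase A, went from 10.86, 10.93 and 10.59 to 11.79, 13.47 and 12.77 (1.88 ± 0.39, adjusted p = 0.0343), whereas Adamts1 (-2.40 ± 0.42, adjusted p = 0.0232) and Adamts5 (-1.43 ± 0.30, adjusted p = 0.0365), which cleave proteoglycans, fell with Mmp3.

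In the list of TGF-beta signalling and fibroblast activation, 9 of 29 genes fell and 3 rose. Over all genes tested, 2.91% were called lower and 1.88% higher. Beside Ccn1, Ccn2 and Ccn5 the falls included Tnfrsf12a, the receptor for the cytokine TWEAK, from 7.22, 8.36 and 9.97 to 5.54, 5.47 and 6.13 (-2.80 ± 0.54, adjusted p = 0.0293), and the ligands Tgfb2 (-2.10 ± 0.49, adjusted p = 0.047) and Tgfb1 (-0.48 ± 0.07, adjusted p = 0.014), both chosen after their values were seen. Of 37 Wnt, Notch and BMP modulators 5 fell and 0 rose. Bmp4, a bone morphogenetic protein, fell from 10.60, 9.79 and 10.29 to 8.48, 7.47 and 8.82 (-1.97 ± 0.36, adjusted p = 0.0248), and Fgf2, basic fibroblast growth factor, by 1.17 (SE 0.24, adjusted p = 0.033). Bmp6 had the largest difference of the list (-2.74 ± 0.66, adjusted p = 0.0493; adjusted p = 0.0564 with the replicate block).

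Interferons of type I are secreted signals that switch on antiviral genes through a response element in their promoters. Of 31 such genes tested, 18 rose and 0 fell; the median change was 1.83, all 31 differences were above 0, and for 28 the arrays of the 2 days did not overlap (14.1% of all genes were higher without overlap). Oas2, a 2'-5'-oligoadenylate synthetase that senses double-stranded RNA, read 7.00, 7.15 and 6.75 at day 1 and 8.24, 11.30 and 11.55 at day 7 (3.40 ± 0.72, adjusted p = 0.0364). Ifit3, an antiviral tetratricopeptide protein, went from 7.36, 6.36 and 6.64 to 8.17, 10.11 and 9.48 (2.47 ± 0.43, adjusted p = 0.0232). Stat2 itself went from 7.26, 7.24 and 7.37 to 7.92, 10.26 and 10.59 (2.30 ± 0.55, adjusted p = 0.0488), and Irf7, the amplifier of the interferon response, from 5.80, 5.69 and 5.65, under the negative controls, to 6.61, 8.95 and 8.24 (2.22 ± 0.46, adjusted p = 0.0343). In all 4 genes day 7 replicate 1 was the lowest of its group by 1 log2 unit or more. The mean of the list was 6.26 to 6.36 on the day 1 arrays and 6.94, 8.60 and 8.39 on the day 7 arrays.

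With 1 array left out, the median of the list stayed between 1.47 and 2.39. Limma then called 29 members without day 7 replicate 1 and 4 without day 7 replicate 2. It called 1 without day 1 replicate 3 and 0 without day 1 replicate 2. Without a day 0 array there were 5 or 6, and without day 3 replicates 1, 2 and 3 there were 13, 6 and 8. With the control difference as a covariate 26 were called and the median was 2.50. The Ifi200 family, DNA sensors encoded in a cluster of similar genes, was chosen after its values were seen. Of 9 members tested 5 rose and 0 fell, with a median of 2.27, beside 1.88% of all genes called higher. Mndal read 9.01, 8.70 and 8.80 at day 1 and 10.39, 12.42 and 12.32 at day 7 (2.88 ± 0.45, adjusted p = 0.0167), and Ifi213 changed by 2.50 ± 0.41 (adjusted p = 0.0187). The related pseudogene Ifi203-ps changed by 3.30 ± 0.44 (adjusted p = 0.0111). Copies in this family are similar enough that probes may share signal.

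The core of the interferon-stimulated response element, TTTC, any 2 bases and TTTC again, was searched on both strands of the same promoter windows. It was present in 15 of 25 windows of the tested members, in 9 of 14 windows of the members that passed (64.3%), in 6 of 11 windows of those that did not (54.5%), and in 3.44% of windows of all genes. The stretches below, on GRCm38.p6 and read along the strand of the gene before its start, are shown because they belong to members that rose, with the core in capitals:
Ifit3, chr19:34583353-34583436, plus strand: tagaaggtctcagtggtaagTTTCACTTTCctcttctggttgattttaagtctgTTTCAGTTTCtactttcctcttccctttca
Stat2, chr10:128270256-128270305, plus strand: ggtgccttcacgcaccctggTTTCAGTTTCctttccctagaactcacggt
Trim30a, chr7:104465200-104465249, minus strand: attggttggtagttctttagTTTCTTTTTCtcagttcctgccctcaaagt
Rsad2, chr12:26456543-26456592, minus strand: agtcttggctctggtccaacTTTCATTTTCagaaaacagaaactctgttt
The Ifit3 stretch holds 2 copies and the others 1 each. Trim30a, an antiviral ubiquitin ligase of the TRIM family, changed by 2.17 ± 0.45 (adjusted p = 0.035), and Rsad2, viperin, by 1.89 ± 0.28 (adjusted p = 0.014) from a level under the negative controls.

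Some genes of antigen presentation by MHC class II were higher too. Of 10 class II and dendritic cell genes tested, 4 rose (1.88% of all genes did) and 0 fell (median 0.55). Limma called 0 without day 1 replicate 2 or without day 1 replicate 3. H2-Eb1, a beta chain, read 7.35, 7.32 and 7.27 at day 1 and 8.19, 9.97 and 9.40 at day 7 (1.87 ± 0.37, adjusted p = 0.0318). H2-Aa, an alpha chain, went from 6.97, 6.79 and 6.79 to 7.72, 8.82 and 9.01 (1.67 ± 0.32, adjusted p = 0.0288). For both, day 7 replicate 1 was again the lowest of the 3, still above each day 1 array. Ciita, the class II transactivator, and Clec9a, a receptor of cross-presenting dendritic cells, were under the negative control median at day 1 and changed by 0.52 and 0.77 (adjusted p = 0.0446 and 0.0467; for Ciita adjusted p = 0.0576 with the replicate block).

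Macrophage markers did not move as one. Of 36 tested, 3 rose and 2 fell, with a median of 0.17 that turned to -0.07 with median centring. Over all genes tested, 1.88% were called higher and 2.91% lower. Apoe, the lipid carrier of macrophages and other cells, read 10.06, 9.66 and 10.20 at day 1 and 10.82, 11.36 and 11.41 at day 7 (1.22 ± 0.18, adjusted p = 0.0142), and Ms4a4a rose by 1.52 ± 0.35 (adjusted p = 0.0441; adjusted p = 0.051 with the replicate block), while Lyve1 and F13a1 fell as given above. In the list of lipid handling and lysosomal genes 5 of 22 rose and 0 fell, among them Plin2, which coats lipid droplets (1.53 ± 0.30, adjusted p = 0.0308), and Ctsk, the collagen-cleaving cathepsin K (1.19 ± 0.25, adjusted p = 0.0343; adjusted p = 0.0509 with the replicate block). Both called mast cell genes were proteases and fell: Cpa3, carboxypeptidase A3, from 8.62, 8.79 and 9.47 to 7.08, 6.91 and 7.27 (-1.87 ± 0.29, adjusted p = 0.0167), and Mcpt4, a chymase, by 1.01 (SE 0.22, adjusted p = 0.0411), 2 of 6 mast cell genes tested. Of 8 neutrophil markers and 7 markers of T and NK cells, 1 each rose, Csf3r (0.48) and Il7r (0.83). Both were under the negative controls at day 1, and Csf3r was under them on all day 7 arrays as well. Of 4 B cell markers limma called 0 (0 at an unadjusted p under 0.05). Cd79a and Jchain of that list were under the negative controls on all 6 arrays.

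Inflammatory signals were called in both directions. Il6, interleukin 6, read 7.34, 8.27 and 6.83 at day 1 and 6.02, 5.86 and 5.65 at day 7, without overlap, and missed the threshold (-1.64 ± 0.53, adjusted p = 0.0845). Ccl2, the monocyte chemoattractant, read 8.94, 8.24 and 8.01 against 6.87, 7.22 and 7.03 and also missed it (-1.36 ± 0.35, adjusted p = 0.057). Ccl7, a related chemokine, fell by 1.66 (SE 0.40, adjusted p = 0.0493; adjusted p = 0.0537 with the replicate block). Csf1, the macrophage growth factor, fell from 9.27, 8.99 and 8.51 to 6.99, 7.23 and 7.81 (-1.58 ± 0.26, adjusted p = 0.0195). Serpina3n, an acute-phase protease inhibitor, read 8.65 to 10.24 in untreated vessels, 14.85, 15.38 and 13.95 at day 1 and 12.01, 15.92 and 13.01 at day 7 (-1.08 ± 0.88, adjusted p = 0.42), with overlapping arrays, and was still called higher at day 7 than at day 0 (4.07, adjusted p = 0.0123). Saa3, a serum amyloid A of tissues, rose from under the negative controls to 6.96, 8.25 and 6.37 (2.08 ± 0.38, adjusted p = 0.0258). In all, 2 of 21 chemokines rose and 1 fell, and 1 of 22 cytokine and acute-phase genes rose and 1 fell. Over all genes tested, 1.88% were called higher and 2.91% lower. The 2 chemokines that rose, Ccl3 and Ccl5, were under the negative controls on every array of both days. With the replicate block limma called neither (adjusted p = 0.051 and 0.0571). Of 26 adhesion molecules and genes of activated endothelium tested, 2 fell and 0 rose, with a median change of -0.41. In that list 5 differences were above 0 and 13 had an unadjusted limma p under 0.05. Without overlap 10 were lower, as were 11.3% of all genes. The 2 called were Esm1, and Erg, an endothelial transcription factor, from 9.0, 8.96 and 8.85 to 7.43, 7.70 and 8.02 (-1.22 ± 0.16, adjusted p = 0.0111).

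**Figure D4:**
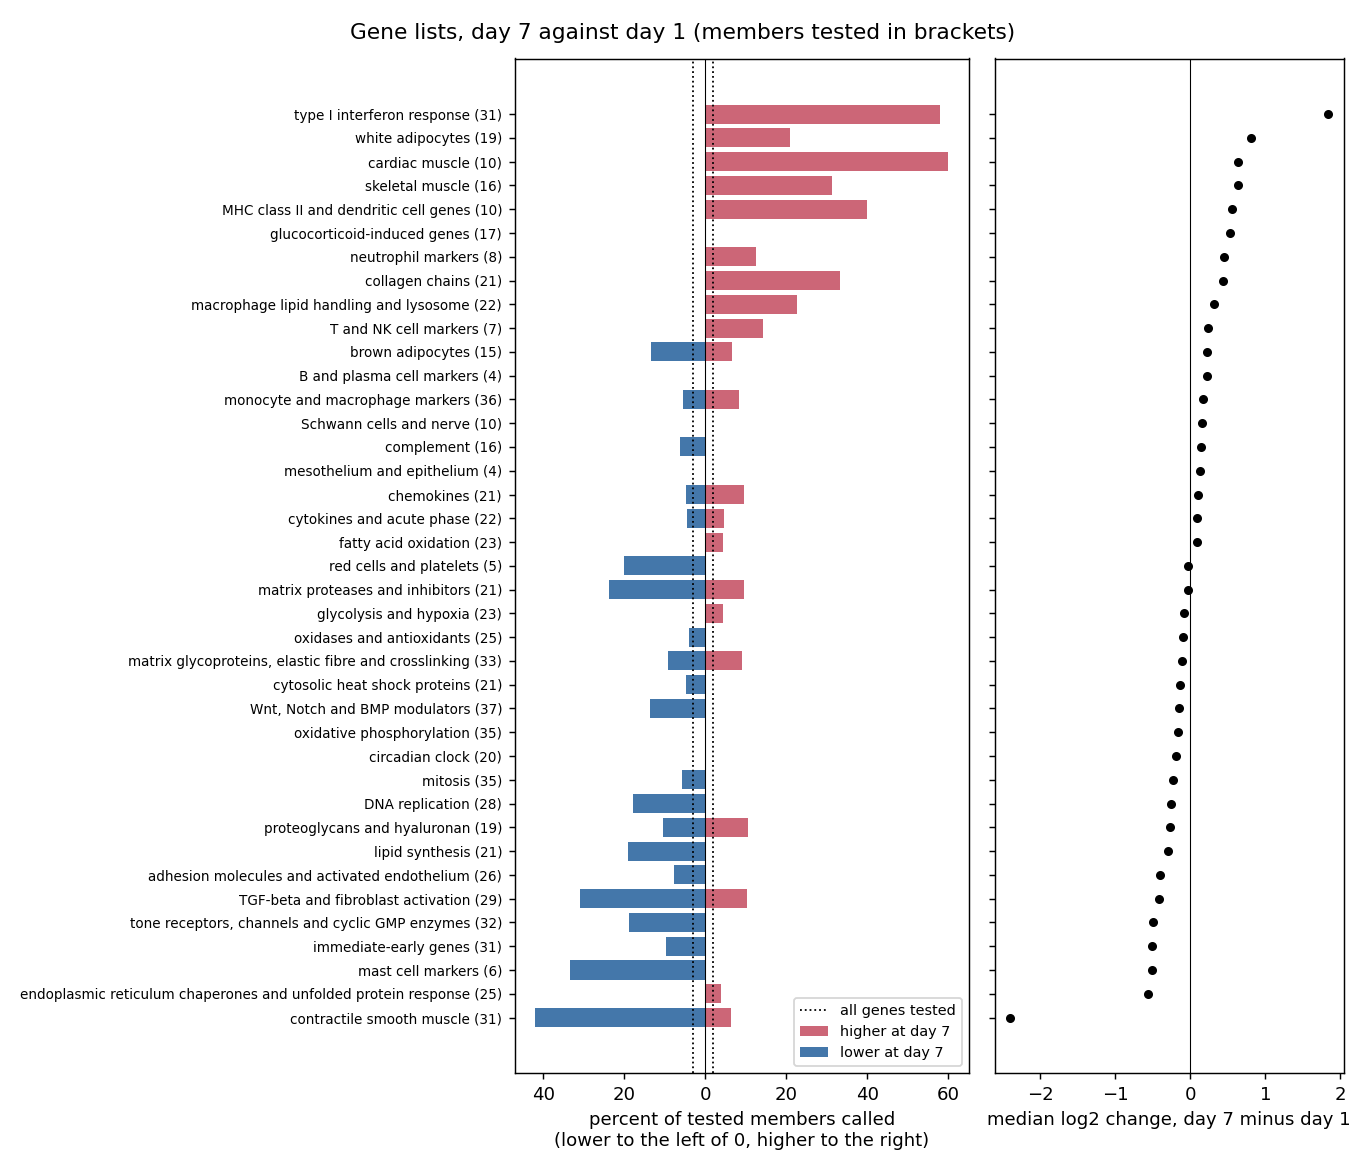
Left, percent of the tested members of each gene list called lower (bars to the left) or higher (bars to the right) at day 7 than at day 1, with dotted lines at the shares over all genes tested, 2.91% and 1.88%; right, the median log2 change of each list. The interferon list has the highest median (1.83) and the contractile list the lowest (-2.40).

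Fat and lipid genes moved in 2 ways. Of 19 white adipocyte genes 4 rose and 0 fell (median 0.81), beside 1.88% higher and 2.91% lower over all genes. Pck1, which makes glycerol for fat storage, read 8.79, 10.77 and 11.34 at day 1 and 12.61, 13.39 and 13.26 at day 7 (2.78 ± 0.56, adjusted p = 0.033), and Lpl, lipoprotein lipase, went from 11.48, 11.38 and 12.58 to 13.22, 13.65 and 13.68 (1.70 ± 0.35, adjusted p = 0.0338). In untreated vessels Pck1 read 11.65 to 12.41 and Lpl 13.10 to 13.37, above each day 1 array, though limma did not call that difference (adjusted p = 0.128 and 0.0552), nor the one between day 7 and day 0 (adjusted p = 0.195 and 0.585). The list had 0 calls without day 1 replicate 2, without either of day 7 replicates 1 and 2 or without any day 0 array (limma). Its mean varied with the array, at 9.72, 10.72 and 11.13 at day 1 and 10.73, 11.49 and 11.16 at day 7. Of 21 lipid synthesis genes 4 fell, 0 rose and 17 did not pass. The 4 were Insig1, the sterol sensor's partner, from a mean of 9.60 to one of 7.73 (-1.87 ± 0.26, adjusted p = 0.012), and the enzymes Sqle (-1.42 ± 0.24, adjusted p = 0.0213), Idi1 (-1.13 ± 0.19, adjusted p = 0.0201) and Fdps (-0.99 ± 0.19, adjusted p = 0.0308). Pfkfb3, an activator of glycolysis, rose from 7.56, 8.73 and 9.37 to 10.40, 11.13 and 11.52 (2.46 ± 0.47, adjusted p = 0.0283), alone among 23 glycolysis and hypoxia genes. Ppargc1a, the co-activator of mitochondrial genes, rose by 1.72 ± 0.36 (adjusted p = 0.0346), and limma called 0 of 35 subunits of the respiratory chain (6 at an unadjusted p under 0.05).

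Some cardiac muscle genes rose. Of 10 tested, 6 rose (1.88% of all genes did) and 0 fell, and 3 were called without day 1 replicate 2 or without day 1 replicate 3. Called or not, 6 of the 10 were under the negative controls on all day 1 arrays. Myh6, the alpha myosin heavy chain of atrial and adult mouse heart muscle, was under the negative controls at day 1, at 5.61, 5.40 and 5.50, and read 7.92, 7.77 and 7.96 at day 7 (2.38 ± 0.11, adjusted p = 4.7e-05). Tnnt2, cardiac troponin T, went from 7.95, 7.78 and 8.03 to 9.28, 9.67 and 9.50 (1.56 ± 0.18, 2.96-fold, adjusted p = 0.0076). Myl7, the atrial light chain, went from 5.33, 5.11 and 5.13, also under the negative controls, to 6.98, 6.38 and 6.81 (1.53 ± 0.15, adjusted p = 0.0042). The spread within each group was small beside these differences. At day 3 Myh6 read 5.42 to 5.79, below every day 7 array. Of 16 skeletal muscle genes tested 5 rose and 0 fell, with a median change of 0.64, the same to 2 decimals as in the cardiac list. The 5 were all under the negative controls on the day 1 arrays, and Myh7, Mylpf and Mybpc1 on the day 7 arrays as well. Myh4, a fast myosin heavy chain, changed by 0.95 ± 0.23 (adjusted p = 0.0483, and adjusted p = 0.0609 with the replicate block). The skeletal list had 1 call with quantile normalization, with centring or with cyclic loess, and the cardiac list had 5 in each. Without day 1 replicate 2 the skeletal list had 0 calls and the cardiac list 3, and without day 7 replicate 1 they had 9 and 4. How far the dissection differed between the days was not tested.

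**Figure D5:**
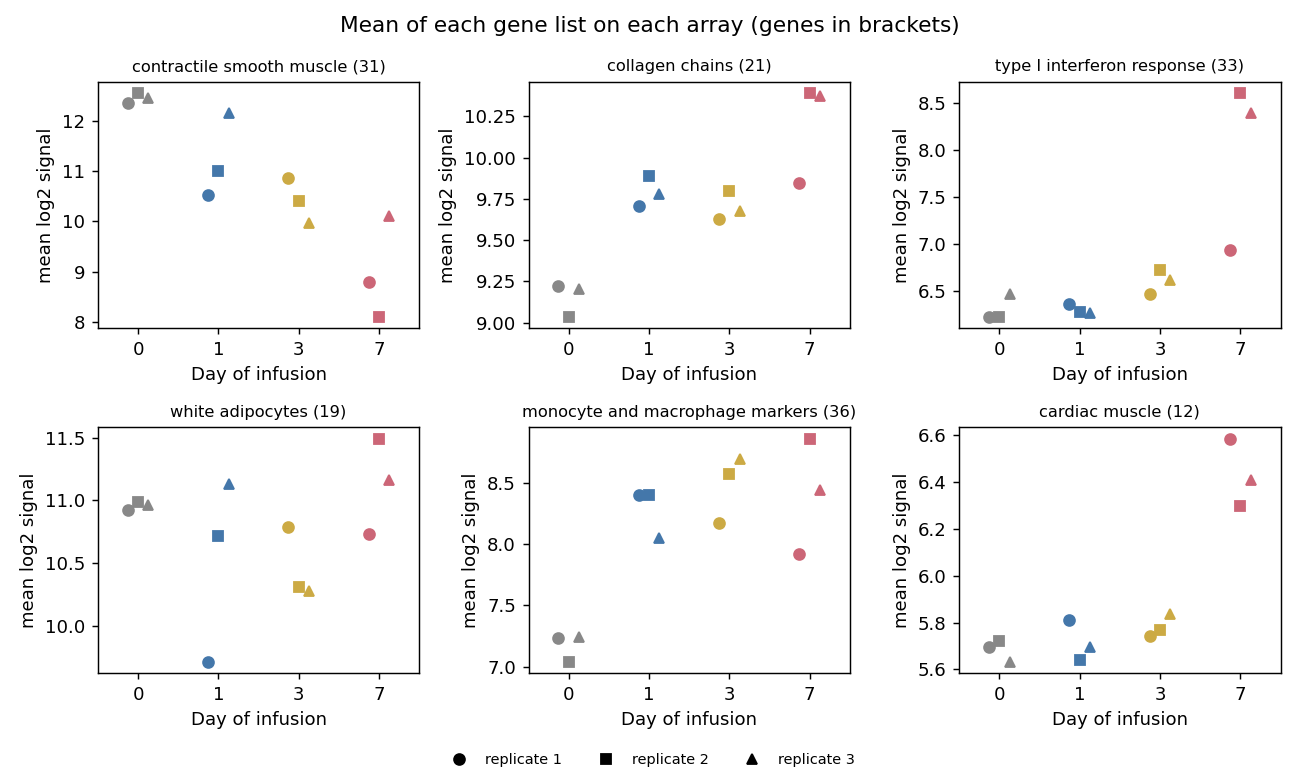
Mean log2 signal of 6 gene lists on each of the 12 arrays, by day of infusion; symbols mark the replicate number and the number of genes in each mean is in brackets. Contractile genes are lower on all 3 day 7 arrays (8.10 to 10.10) than on all day 1 arrays (10.53 to 12.17), the interferon mean of day 7 replicate 1 (6.94) lies between the day 1 arrays and the other day 7 arrays, and white adipocyte genes are lowest on day 1 replicate 1 (9.72).

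A few genes of cell division were lower at day 7. Of 28 DNA replication genes 5 fell and 0 rose (median -0.26), and of 35 mitosis genes 2 fell and 0 rose (median -0.23). Mcm6, a subunit of the replicative helicase, read 7.81, 8.29 and 8.07 at day 1 and 6.46, 6.92 and 7.07 at day 7 (-1.24 ± 0.22, adjusted p = 0.0232). Anln, the cytokinesis protein anillin, went from 7.79, 8.49 and 8.38 to 6.70, 6.49 and 7.10 (-1.46 ± 0.23, adjusted p = 0.0167). With median centring 15 replication and 16 mitosis genes were called lower, and 20 of the 35 mitosis genes were under the negative controls on all day 7 arrays. Of 31 immediate-early genes 3 were called lower (Ccn1, Srf and Ier3, the last by 1.86), beside 2.91% of all genes. That list had a median change of -0.51, with 2 differences above 0 and 12 genes lower without overlap (11.3% of all genes). Of 21 cytosolic heat shock proteins 1 was called lower, Cryab, the small chaperone alpha-B crystallin (-1.27 ± 0.23, adjusted p = 0.0246), with a list median of -0.13 and 8 differences above 0. Of 25 genes of the unfolded protein response 1 rose (Ero1b, 0.50), but the list ran the other way, with a median change of -0.57, 6 of 25 differences above 0 and 12 at an unadjusted p under 0.05. In this list 7 genes were called lower with quantile normalization, 5 with centring, 3 with the replicate block and 12 with array weights. In other lists limma called 0 of 20 clock genes (5 at an unadjusted p under 0.05) and 0 of 17 glucocorticoid-induced genes (4), and among oxidases and antioxidants Gstm2 alone was called of 25. The largest difference in the glucocorticoid list was in Pdk4, a kinase that closes the pyruvate dehydrogenase step, with day 1 arrays at 8.94, 12.19 and 11.73 and day 7 arrays at 14.01, 12.57 and 13.79 (2.50 ± 0.80, adjusted p = 0.0816).

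Some sensory receptor genes were called higher at day 7. Of 1309 olfactory, vomeronasal and taste receptor genes tested, a family chosen after its values were seen, 82 rose and 0 fell, with a median change of 0.70 from a median level of 5.34 to 5.99, and 940 were under the negative controls on all day 1 arrays. Vmn1r114, one of these receptors, read 10.35, 9.84 and 8.59 at day 1 and 13.40, 13.25 and 11.57 at day 7 (3.15 ± 0.75, adjusted p = 0.0483; adjusted p = 0.0626 with the replicate block). Mup-ps5, a pseudogene of the major urinary proteins, went from 8.59, 8.17 and 7.25 to 10.86, 11.44 and 10.18 (2.82 ± 0.50, adjusted p = 0.0242). With the control difference as a covariate 6 receptors were called, and without day 1 replicate 2 there were 2. Small nucleolar and Cajal body RNAs had a median change of 0.50, with 11 of 814 called higher and 5 lower. Both counts are under the shares over all genes tested (1.88% and 2.91%).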

How the data were processed

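The submitters' processing notes name Affymetrix Expression Console, and the values were used as the authors deposited them: log2 signals summarised per transcript cluster, with version, background correction and normalization not given in the sources used here. An older array design stands in the labels than the cluster identifiers belong to. Clusters with 1 gene symbol were kept (31258 of 65956; 1492 had several symbols and 33206 none), and for a gene with several clusters the one with the highest mean over 12 arrays. Genes reaching the 40th percentile on at least 3 arrays were tested.

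Each contrast was fitted with limma 3.58.1 (R 4.3.3; lmFit and eBayes) on all 12 arrays by day, with Benjamini-Hochberg adjustment over all genes tested. The script was tested on simulated data. Changes are ± SE and a fold is 2 to the power of the change. A gene faded if its call at day 1 against day 0 was followed by a call in the other direction, and went on changing if by one in the same direction.

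Named are the 12 largest calls in each direction, the 6 largest of each class, up to 4 calls of each list (or up to 2 values where none passed) and 10 genes of the angiotensin response; predicted and small RNA genes were passed over. The members and lists were chosen with earlier results of these data known. Same-numbered arrays of days 1 and 7 deviated together from their group means (r = 0.614, 0.364 and 0.662 across genes, each highest with its own number), so the replicate number was also fitted as a block. The pairing comes from the data of days 1 and 7 only, and the labels do not say what the numbers share. Signal over background rose with the replicate number at day 1 (1.94, 2.30 and 2.51) and at day 7 (1.20, 1.98 and 2.10). At day 3 it fell with the number (2.11, 2.01 and 1.83). Whether the pairing follows this order of the arrays was not tested. Alternatives changed normalization, filter, clusters, weights, covariates and the arrays used. The number of arrays limits the precision.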

Additional observations from a re-analysis of the deposited data

Results flagged for a closer look

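For 3 genes the changes at day 1 and at day 7, each against day 0, were both called and had opposite signs, and in each the change from day 1 to day 7 was also called in limma. Edn1, endothelin 1, was 1.46 log2 units higher at day 1 (adjusted p = 0.0474) and changed by -1.38 at day 7 (adjusted p = 0.0194), a difference of -2.84 (adjusted p = 0.0077). Ptch1, the Hedgehog receptor, changed by 0.44 (adjusted p = 0.0495) and by -0.95 (adjusted p = 0.001), a difference of -1.39 (adjusted p = 0.00073). Tipin, a protein of the replication fork, changed by 0.57 (adjusted p = 0.0421) and by -0.42 (adjusted p = 0.0382), a difference of -0.99 (adjusted p = 0.0098).

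Outside the genes compared, 10 of 20187 transcript clusters with no gene symbol were called higher at day 7 than at day 1 and 13 lower (limma, adjusted over these clusters), which is 0.114% of them.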

How the results depend on the processing

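As reported, 414 genes were higher and 642 lower, 32 went on changing, 57 faded and 812 appeared late, and the 36 genes named as the largest changes or of a class were all called. With a replicate block, from numbers the data pair, 438 were higher and 836 lower, 48 went on changing, 70 faded, 983 appeared late, 35 of the 36 and 863 of the 1056 calls were kept, and of 110 named calls 15 were lost; the block changed no other named call. Quantile normalization gave 1698 lower, 105 fading, 1501 late and 27 day 1 calls moving on. Centring gave 1746 lower, 94 fading and 1708 late. Cyclic loess, chosen after seeing the data, gave 87 going on and 111 fading. Without a filter 418 were lower, 14 went on and 35 faded; the 60th percentile gave 54 going on. Without small RNA and predicted genes 657 were higher and 72 went on. Array weights gave 3933 higher, 3092 lower, 876 going on, 1603 fading, 2894 late, 338 day 1 calls moving back and 246 moving on. The control-feature covariate gave 241, 122, 19, 27 and 221, with 19 moving on and 17 of the 36 named. The adipocyte covariate gave 3310 higher, 2418 lower, 0 going on, 0 fading, 2196 late, 0 moving back and 0 moving on. With the compared arrays alone limma called 2 higher and 0 lower (4469 at an unadjusted p under 0.05), with 1 of the 36. The class counts under this setting were 3 going on, 17 fading and 171 late, with 22 moving back and 17 moving on. Each class requires a call between the compared groups. Those class counts exceed the 2 calls, so they cannot come from the fit of the compared arrays alone. Leaving out 1 array gave 16 to 2240 higher, 27 to 1539 lower, 0 to 124 going on, 3 to 67 fading, 39 to 3113 late, 6 to 51 moving back, 2 to 83 moving on and 9 to 36 of the 36. Array weights, the trend with robust variances, the mean over clusters and the removal of small RNA genes kept all 110 named calls; at the 60th percentile 101 were kept and the others were not tested; each other alternative lost some, and none reversed one. The causes of these differences were not tested. Signals under the negative controls and at the ceiling limit the sizes of dim rises and of the fall of Acta2.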
